A study of Homo sapiens with 15 samples.

Results

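Retinoids, the vitamin A derivatives, reach cells as retinol bound to a carrier, are stored as retinyl esters, and are oxidised through retinal to retinoic acid. All-trans retinoic acid (ATRA) acts in the nucleus through the RAR and RXR receptors, and dedicated cytochrome P450 enzymes break it down. Several genes of uptake, storage and breakdown are known to respond to ATRA themselves, which makes the pathway a classic case of feedback. Here 9 genes of this pathway were described in A549 cells, a human lung epithelial line that came from an adenocarcinoma: STRA6, RBP4, CRABP2, LRAT, DHRS3, RDH10, CYP26A1, CYP26B1 and RARRES1. They were chosen by symbol with earlier results of these data known, and all 9 were among the 43388 genes counted by RNA-seq. Member counts and medians set beside those of all genes below are therefore descriptions and not a test of the set.

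The 14 libraries that could be placed in a group came from wild-type A549 cells held for 72 hours in 95% O2 (hyperoxia) or 21% O2 (normoxia). At each exposure, 3 libraries came from cells given 1e-05 mM ATRA, 2 from cells given the ethanol vehicle instead, and 2 from cells labelled with neither, called untreated here. A pretreatment of 24 hours is recorded for the ATRA and vehicle libraries, while the study's methods describe ATRA as present during the exposure. All groups share one cell line and one medium with fetal bovine serum, itself a source of retinol. The labels do not say whether libraries of a group came from separate cultures, so p-values measure only the spread between these libraries, which may be technical, and replicates were numbered in the order of deposit. RNA was measured in bulk, so fewer cells of a kind and less RNA per cell cannot be told apart.

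Counts on genes ranged from 2642377 to 5605072 per library, and levels are given as CPM, counts scaled to 1000000 per library with TMM factors from the 14 libraries. At this depth 3 counts corresponded to 0.535 to 1.14 CPM, a limit that covers counting error only. Hyperoxia untreated replicate 1, called the low-detection library here, stood apart: 12657 genes had a count there against 16465 to 20108 elsewhere, and 610 of the 11096 genes with at least 10 counts in every other library were at 0. Except where stated, tests of the 8 members against untreated hyperoxia libraries are given without it as well where it moved the value. Among epithelial markers, the keratins KRT8, KRT18 and KRT19 and the cadherin CDH1 were downregulated in hyperoxia with vehicle. All 6 epithelial markers together summed to 1689 to 1788 CPM in hyperoxia with vehicle, 2809 to 4210 in hyperoxia with ATRA, 5851 to 6810 in normoxia with vehicle and 6902 to 9567 in normoxia with ATRA. The 5 surfactant protein genes used as alveolar type II markers (SFTPA1 and SFTPA2, SFTPB, SFTPC, SFTPD) had at most 5 counts in any library. Of the leukocyte markers, PTPRC, LYZ and CD3E had at most 5 counts in any library, while CD68 was at 60.4 to 103 CPM in hyperoxia and 17.4 to 32.8 CPM in normoxia. The part that these shifts play in the results below was not tested.

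With ATRA, 4 of the 8 members that could be tested were upregulated at both oxygen exposures: the uptake receptor STRA6, the retinal reductase DHRS3, the breakdown enzyme CYP26B1 and the ATRA responder RARRES1. In each of the 2 comparisons with vehicle, CYP26B1 had the largest log2 fold change (log2FC) among the members. None of the 8 was downregulated. In hyperoxia 2.21% of the 14957 genes tested were differentially expressed (DE) with ATRA, 1.52% being higher and 0.695% lower than with vehicle. In normoxia 1.25% were DE, 0.816% higher and 0.435% lower. DE here means an adjusted p-value under 0.05 in edgeR, whose quasi-likelihood p-values were corrected by Benjamini-Hochberg over all genes tested. The median log2FC of the 8 members was 1.43 in hyperoxia, beside 0.0042 over all genes tested, and 1.04 in normoxia, beside 0.00080.

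Against the vehicle and untreated libraries together, the same 4 genes had every ATRA library above every library without ATRA at the same oxygen exposure, a pattern that 6.65% of genes showed in hyperoxia and 6.32% in normoxia. CYP26B1, DHRS3 and RARRES1 also separated all 6 ATRA libraries from all 8 others irrespective of oxygen, as did 0.561% of genes. STRA6 did not, since the untreated libraries in hyperoxia reached the level of ATRA in normoxia.

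**Figure D1:**
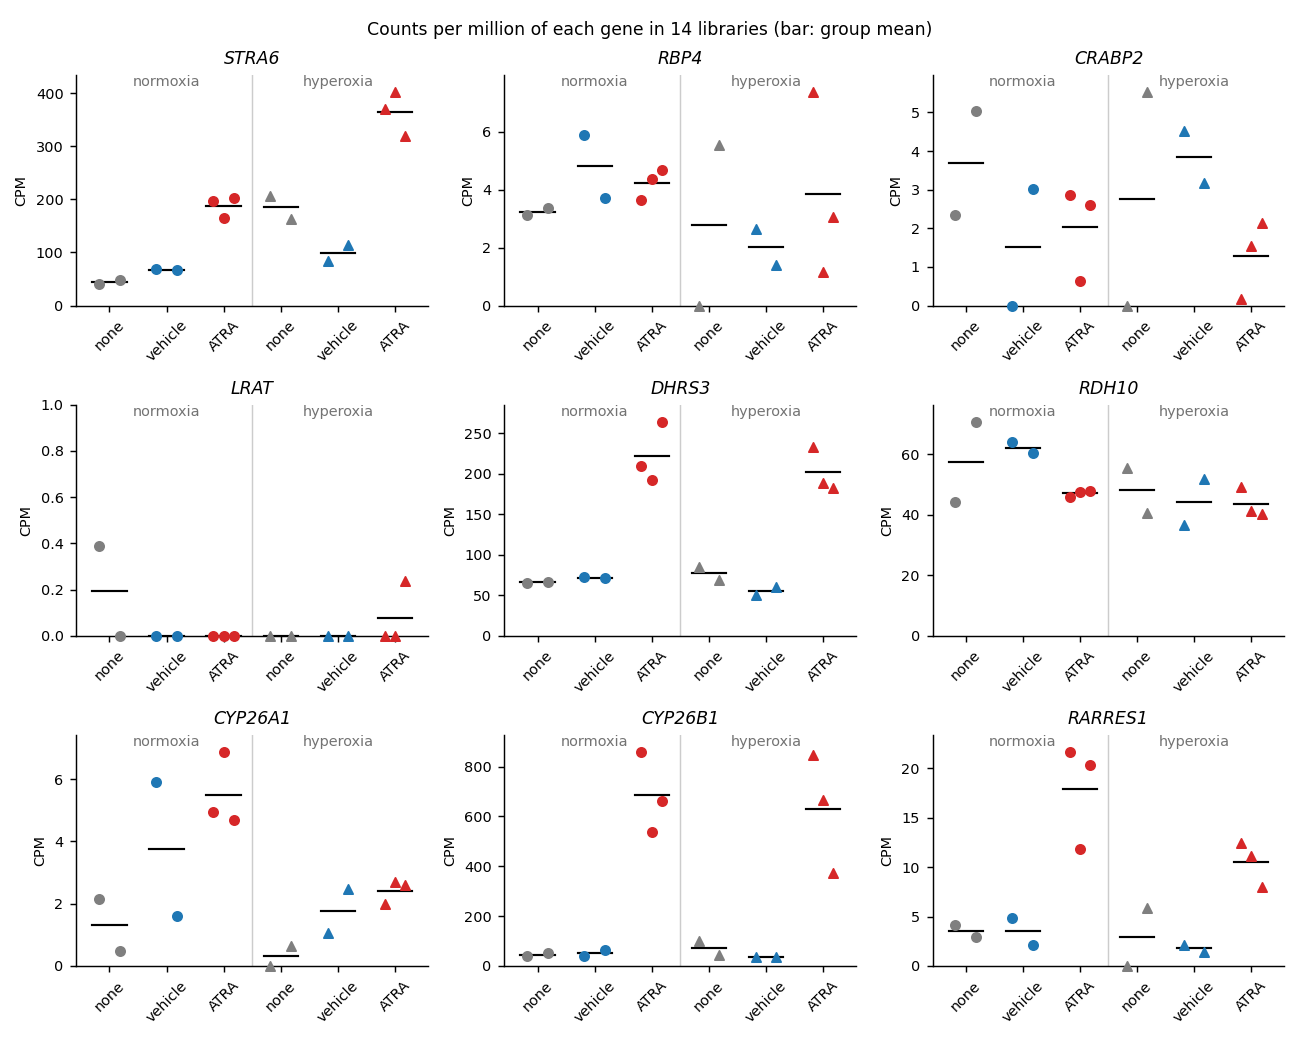
Level of each of the 9 genes in CPM (vertical axes, from 0) in every library of the 6 groups (horizontal axes), with circles for normoxia, triangles for hyperoxia and a bar at each group mean. The ATRA libraries of CYP26B1 sit between 373 and 858 CPM, above all libraries without ATRA at 35.3 to 98.5 CPM, and LRAT stays at or below 0.39 CPM throughout.

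STRA6, on chromosome 15 from 74179466 to 74212259 of hg38, encodes the membrane receptor that takes up retinol from RBP4 in the blood. In hyperoxia its levels were 371, 403 and 319 CPM with ATRA, 84.3 and 115 with vehicle, and 206 and 163 untreated. In normoxia they were 198, 165 and 202 CPM with ATRA, 68.5 and 67.2 with vehicle, and 41.3 and 48.9 untreated. Within each exposure the ATRA libraries lay above all others, and within each treatment the hyperoxia libraries lay above the normoxia ones.

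With ATRA, STRA6 was upregulated 3.64-fold in hyperoxia (log2FC 1.86, SE 0.16, adjusted p = 2.75e-07, edgeR) and 2.78-fold in normoxia (log2FC 1.47, SE 0.16, adjusted p = 1.35e-05, edgeR). With the untreated libraries as controls, a comparison added after the data were seen, the log2FC fell to 0.98 in hyperoxia (adjusted p = 0.0146, edgeR) and rose to 2.06 in normoxia (adjusted p = 1.32e-05, edgeR). Without the low-detection library the former was 1.15 (adjusted p = 0.0108, edgeR). A neighbour that overlaps STRA6, CCDC33, held 2.06% as many counts.

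The 250 bases before the start of STRA6 are shown because they hold the core motif to which RAR and RXR pairs bind, searched on both strands as AGGTCA. Its variant AGTTCA was counted as well, as were the variant written GGGTCA and the further variant spelled GGTTCA. This stretch, from RefSeq for GRCh38.p14 at chr15:74212260-74212509 on the minus strand, has its 3 matches in capitals, of which the matches written TGACCT read AGGTCA on the opposite strand.
STRA6: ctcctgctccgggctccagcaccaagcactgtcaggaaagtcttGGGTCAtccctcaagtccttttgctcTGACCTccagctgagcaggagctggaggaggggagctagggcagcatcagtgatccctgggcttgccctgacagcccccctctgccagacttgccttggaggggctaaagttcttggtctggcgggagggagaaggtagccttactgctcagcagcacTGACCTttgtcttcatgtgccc
A match to the core motif is common: 38.6% of the 35116 RefSeq promoter windows, each reaching 50 bases past the start, held at least 1. A pair of core motifs in the same direction with 5 bases between them, the arrangement called DR5, was in 0.0883% of windows and in none of the 5 windows of STRA6.

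RBP4 (chromosome 10, 93591694 to 93601744), the plasma carrier of retinol, was near the limit of detection, with 206 counts over the 14 libraries. In hyperoxia it was at 7.39, 1.15 and 3.07 CPM with ATRA, 2.65 and 1.41 with vehicle, and 0 and 5.54 untreated. The normoxia values were 3.65, 4.37 and 4.68 CPM with ATRA, 5.91 and 3.72 with vehicle, and 3.12 and 3.36 untreated. The groups overlapped, and the interval of the ATRA effect ran from 0.624-fold to 6.43-fold in hyperoxia (adjusted p = 0.659, edgeR) and from 0.296-fold to 2.69-fold in normoxia (adjusted p = 0.988, edgeR). A change within these limits could not be told from no change with these libraries and counts.

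CRABP2 (chromosome 1, 156699606 to 156705784) encodes the binding protein that carries retinoic acid from the cytosol to its nuclear receptors. It had 139 counts in all, with 0.18, 1.53 and 2.12 CPM in hyperoxia with ATRA, 4.51 and 3.18 with vehicle, and 0 and 5.54 untreated. The normoxia libraries were at 2.87, 0.62 and 2.60 CPM with ATRA, 0 and 3.02 with vehicle, and 2.34 and 5.04 untreated. In hyperoxia the 3 ATRA libraries lay below both vehicle libraries, but the log2FC of -1.61 had an SE of 1.12 (adjusted p = 0.580, edgeR), and in normoxia the log2FC was 0.30 (SE 1.15, adjusted p = 0.984, edgeR).

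LRAT (chromosome 4, 154740838 to 154753120), the acyltransferase that turns retinol into its storage esters, was at most barely detected. Its counts were 1 in hyperoxia ATRA replicate 3, 2 in normoxia untreated replicate 1 and 0 in the other 12 libraries, so it did not pass the low-count filter and was not tested. With 0 counts, a level of up to 0.535 to 1.14 CPM per library remained possible.

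DHRS3 (chromosome 1, 12567910 to 12618210) encodes a reductase that turns all-trans-retinal back into retinol, the step that precedes storage. Its levels in hyperoxia were 233, 189 and 183 CPM with ATRA, 50.4 and 60.6 with vehicle, and 85.1 and 69.4 untreated. In normoxia they were 209, 193 and 264 CPM with ATRA, 72.3 and 71.1 with vehicle, and 65.3 and 66.2 untreated. The lowest ATRA library exceeded the highest library without ATRA, which was the low-detection one.

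DHRS3 was upregulated with ATRA 3.63-fold in hyperoxia (log2FC 1.86, SE 0.17, adjusted p = 4.84e-07, edgeR) and 3.10-fold in normoxia (log2FC 1.63, SE 0.16, adjusted p = 4.50e-06, edgeR). Against the untreated libraries the log2FC was 1.38 in hyperoxia (adjusted p = 0.00117, edgeR), or 1.54 without the low-detection library (adjusted p = 0.000814, edgeR), and 1.76 in normoxia (adjusted p = 5.11e-05, edgeR). The 250 bases before its outermost start, at chr1:12618211-12618460 on the minus strand of GRCh38.p14 from RefSeq, are shown beside those of STRA6 and hold no core motif.
DHRS3: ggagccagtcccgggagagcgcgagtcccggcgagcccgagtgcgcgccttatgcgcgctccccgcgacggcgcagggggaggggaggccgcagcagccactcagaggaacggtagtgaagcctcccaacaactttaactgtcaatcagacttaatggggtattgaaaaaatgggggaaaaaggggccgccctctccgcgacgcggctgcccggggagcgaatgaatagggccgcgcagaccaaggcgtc
Each of the other 2 DHRS3 windows held 1 core motif, and none held a DR5.

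RDH10 (chromosome 8, 73294602 to 73325281) encodes the dehydrogenase that oxidises retinol to retinal, the reaction opposite to that of DHRS3. In hyperoxia it was at 49.2, 41.3 and 40.4 CPM with ATRA, 36.6 and 51.9 with vehicle, and 55.5 and 40.7 untreated. Normoxia gave 45.9, 47.4 and 47.9 CPM with ATRA, 64.0 and 60.5 with vehicle, and 44.3 and 70.8 untreated. The ATRA libraries fell within the range of the untreated libraries at normoxia and within that of the vehicle libraries at hyperoxia, and in normoxia they lay below both vehicle libraries.

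Thus of the enzyme pair between retinol and retinal, DHRS3 changed with ATRA and RDH10 did not pass the test. The log2FC of RDH10 was -0.02 in hyperoxia (SE 0.19, adjusted p = 0.977, edgeR), with an interval from -0.42 to 0.37. In normoxia it was -0.40 (SE 0.19, adjusted p = 0.549, edgeR), with an interval from -0.79 to -0.0083.

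CYP26A1 and CYP26B1 encode P450 enzymes that hydroxylate retinoic acid and so start its breakdown. CYP26B1 (chromosome 2, 72129238 to 72147862) was at 848, 667 and 373 CPM in hyperoxia with ATRA, 36.8 and 35.3 with vehicle, and 98.5 and 42.7 untreated. In normoxia it was at 858, 536 and 661 CPM with ATRA, 41.0 and 62.1 with vehicle, and 39.6 and 51.3 untreated. The lowest ATRA library, hyperoxia replicate 3, was still above the highest library without ATRA, the low-detection one at 98.5 CPM.

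CYP26B1 was upregulated with ATRA 17.5-fold in hyperoxia (95% interval 11.5 to 26.6, log2FC 4.13, SE 0.29, adjusted p = 2.54e-08, edgeR). In normoxia the interval of the fold was 8.66 to 19.6 (log2FC 3.70, SE 0.28, adjusted p = 7.38e-08, edgeR). With the untreated libraries as controls, the log2FC was 3.13 in hyperoxia (adjusted p = 0.000759, edgeR), or 3.88 without the low-detection library (adjusted p = 8.92e-06, edgeR), and 3.92 in normoxia (adjusted p = 5.11e-05, edgeR).

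CYP26A1 (chromosome 10, 93073475 to 93077885), its better known paralog as an ATRA target in other cells, had 147 counts over the 14 libraries. In hyperoxia it was at 1.98, 2.68 and 2.60 CPM with ATRA, 1.06 and 2.47 with vehicle, and 0 and 0.65 untreated. At normoxia the levels were 4.96, 6.87 and 4.68 CPM with ATRA, 5.91 and 1.60 with vehicle, and 2.15 and 0.48 untreated. ATRA and vehicle libraries overlapped at both exposures.

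The log2FC of CYP26A1 with ATRA was 0.40 in hyperoxia (SE 0.83, adjusted p = 0.892, edgeR) and 0.60 in normoxia (SE 0.79, adjusted p = 0.928, edgeR). Against vehicle, the intervals, 0.399-fold to 4.36-fold and 0.486-fold to 4.75-fold, stayed below the lower bound of the CYP26B1 effect at the same exposure. Over the alternatives other than leaving out 1 library, the log2FC ran from 0.39 to 2.99 in hyperoxia and from 0.58 to 2.02 in normoxia. None of these alternatives called CYP26A1. Over such alternatives the lowest log2FC of CYP26B1 was 3.13 in hyperoxia, with untreated controls, and 3.70 in normoxia. The size of the gap between the 2 genes thus depended on the alternative, the choice of controls included. Per kilobase of exon, which allows levels of different genes to be set side by side, the level of CYP26B1 was 159 times that of CYP26A1 in hyperoxia with ATRA, 12.5 times with vehicle and 133 times untreated. The last ratio rests on 2 CYP26A1 counts, which allow 36.7 to 1096 (exact Poisson interval, counting error only), a range that includes the ratio with ATRA. In normoxia the ratios of these levels were 76.3 with ATRA, 8.41 with vehicle and 21.2 untreated. Their intervals for counting error were 59.1 to 100, 5.74 to 12.9 and 12.4 to 39.8. In hyperoxia the intervals were 111 to 238 with ATRA and 7.92 to 21.1 with vehicle. The spread between libraries comes on top of these intervals.

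The sequences before these 2 genes are shown because the DR5 was found for the gene with fewer counts and not for the other. Of the 17 RefSeq windows found for 8 members, the only one with a DR5 belonged to CYP26A1. The site lies 74 to 90 bases before the second of its 2 listed starts, at chr10:93073797-93073825 with its flanks on the plus strand of GRCh38.p14, and the capitals mark the DR5, which reads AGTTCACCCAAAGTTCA on the opposite strand. RARB, a receptor gene whose promoter element is the textbook DR5, is given for comparison at chr3:25428204-25428232 on the plus strand.
CYP26A1: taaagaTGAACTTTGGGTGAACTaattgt
RARB: gggtagGGTTCACCGAAAGTTCActcgca
CYP26B1 has 1 window, and the 250 bases before its start, at chr2:72147863-72148112 on the minus strand, hold no core motif.
CYP26B1: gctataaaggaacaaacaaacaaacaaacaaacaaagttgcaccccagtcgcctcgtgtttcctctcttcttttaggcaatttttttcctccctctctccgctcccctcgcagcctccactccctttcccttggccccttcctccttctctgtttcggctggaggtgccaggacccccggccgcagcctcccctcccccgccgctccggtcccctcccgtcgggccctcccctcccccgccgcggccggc
A match is a description of the letters and not of binding, and a window without one says only that these letters are not in it.

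RARRES1 (chromosome 3, 158696892 to 158732457), retinoic acid receptor responder 1, is a membrane protein gene named for its induction by retinoids. Its levels in hyperoxia were 12.4, 11.1 and 8.03 CPM with ATRA, 2.12 and 1.41 with vehicle, and 0 and 5.86 untreated. In normoxia they were 21.6, 11.9 and 20.3 CPM with ATRA, 4.87 and 2.13 with vehicle, and 4.10 and 2.88 untreated. All 6 ATRA libraries were above all 8 others, although the gap in hyperoxia was small, from 5.86 to 8.03 CPM.

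RARRES1 was upregulated 6.01-fold with ATRA in hyperoxia (log2FC 2.59, SE 0.53, adjusted p = 0.00862, edgeR) and 5.42-fold in normoxia (log2FC 2.44, SE 0.50, adjusted p = 0.0116, edgeR). The call was less firm than the other 3. Of the 9 alternatives other than leaving out each library in turn, it was kept in 5 in hyperoxia and in 6 in normoxia. It was lost when all 14 libraries were fitted in 6 groups (adjusted p = 0.458 in hyperoxia and 0.745 in normoxia, edgeR) or vehicle and untreated libraries were pooled (adjusted p = 0.166 and 0.161, edgeR). Pooled without the low-detection library it was kept (adjusted p = 0.0306 and 0.000754, edgeR). It was also lost in hyperoxia without vehicle replicate 1 (adjusted p = 0.0861, edgeR) or replicate 2 (adjusted p = 0.213, edgeR). In normoxia it was lost without vehicle replicate 2 (adjusted p = 0.333, edgeR), ATRA replicate 1 (adjusted p = 0.0865, edgeR) or ATRA replicate 3 (adjusted p = 0.0530, edgeR). Against the untreated libraries its log2FC in hyperoxia was 1.93 (adjusted p = 0.313, edgeR), or 0.84 without the low-detection one. In normoxia the log2FC over the 9 alternatives, untreated controls among them, ran from 2.34 to 2.47. The losses named above are not all of those in normoxia.

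RARRES1 shares 97 bases with the lncRNA gene LOC100287290, which held 96.9% as many counts as RARRES1 itself. The kit marks strand, but the strand setting of the counting is not given in the sources used here, so reads in the shared bases may belong to either. LOC100287290 was not DE with ATRA in hyperoxia (log2FC -0.06, SE 0.52, adjusted p = 0.979, edgeR) or in normoxia (log2FC 0.31, SE 0.50, adjusted p = 0.949, edgeR).

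**Figure D2:**
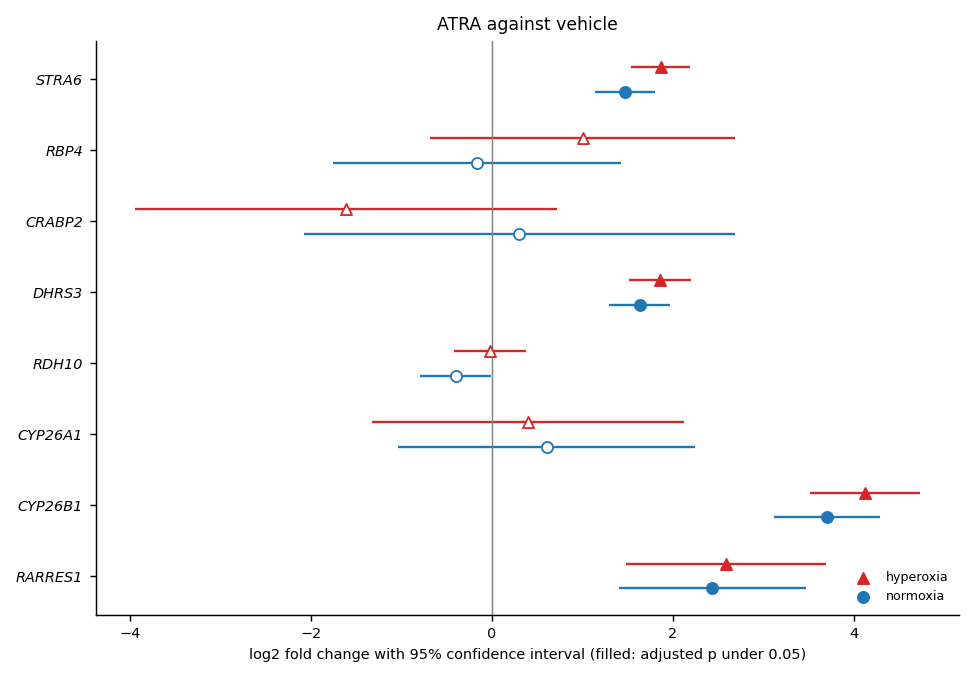
log2FC with ATRA against vehicle (horizontal axis) for the 8 genes tested (vertical axis), in hyperoxia (triangles) and normoxia (circles), with 95% confidence intervals and filled symbols for an adjusted p-value under 0.05. CYP26B1 lies farthest right at 4.13 and 3.70, RARRES1, STRA6 and DHRS3 lie between 1.47 and 2.59, and the intervals of CYP26A1, RBP4 and CRABP2 all include 0.

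Whether the ATRA effect itself differed between the oxygen exposures was tested by an interaction term. None of the 8 members passed (edgeR, 0 also by DESeq2 and 0 at an unadjusted p under 0.05), beside 0.14% of all genes tested (0.1% higher and 0.0401% lower). The difference in log2FC, hyperoxia minus normoxia, was 0.42 for CYP26B1 (SE 0.36, adjusted p = 0.867, edgeR) and 0.23 for DHRS3 (SE 0.22, adjusted p = 0.895, edgeR). For RARRES1 it was 0.15 (SE 0.68, adjusted p = 0.985, edgeR). For STRA6 it was 0.39 (SE 0.21, adjusted p = 0.765, edgeR), with an interval from -0.05 to 0.83. With untreated libraries as controls the difference for STRA6 was -1.08 (adjusted p = 0.335, edgeR), or -0.90 without the low-detection library (adjusted p = 0.773, edgeR), so its direction depended on which controls were used.

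Between the oxygen exposures, STRA6 was the 1 member that changed, and it was higher in hyperoxia under every treatment. Its log2FC was 2.04 in untreated cells (4.10-fold, SE 0.19, adjusted p = 4.29e-06, edgeR), 0.56 with vehicle (1.47-fold, SE 0.17, adjusted p = 0.0242, edgeR) and 0.95 with ATRA (1.93-fold, SE 0.13, adjusted p = 1.48e-05, edgeR). Oxygen affected many genes: 15.2% of those tested were DE in untreated cells (7.57% higher in hyperoxia and 7.58% lower), 17.5% with vehicle (8.68% and 8.81%) and 22.7% with ATRA (11.4% and 11.3%). The 1 of 8 members is near these shares. Every hyperoxia library was above every normoxia library for STRA6 without ATRA (13.7% of genes) and with ATRA (17.5% of genes).

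The STRA6 call with vehicle rested on few libraries. It was lost without hyperoxia vehicle replicate 2 (log2FC 0.29, adjusted p = 0.503, edgeR), without normoxia vehicle replicate 1 (adjusted p = 0.142, edgeR) or replicate 2 (adjusted p = 0.180, edgeR), and with 14 libraries in 6 groups (adjusted p = 0.0750, edgeR). In untreated cells without the low-detection library the log2FC was 1.85 (adjusted p = 1.06e-06, edgeR).

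The other 3 genes that rose with ATRA were not DE between the oxygen exposures. For CYP26B1 the log2FC of hyperoxia against normoxia was 0.66 in untreated cells, -0.55 with vehicle and -0.12 with ATRA (adjusted p = 0.259, 0.249 and 0.727, edgeR). For DHRS3 it was 0.24, -0.36 and -0.14 (adjusted p = 0.410, 0.188 and 0.510, edgeR). RARRES1 had -0.35, -0.92 and -0.77 (adjusted p = 0.844, 0.351 and 0.162, edgeR). Without the low-detection library the untreated value was -0.09 for CYP26B1, 0.073 for DHRS3 and 0.73 for RARRES1 (adjusted p = 0.929, 0.896 and 0.569, edgeR), so those of CYP26B1 and RARRES1 changed sign. With ATRA the RARRES1 libraries ranged from 8.03 to 12.4 CPM in hyperoxia and from 11.9 to 21.6 CPM in normoxia, and these ranges overlapped.

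For RDH10 the log2FC of hyperoxia against normoxia with vehicle was -0.48 (adjusted p = 0.122, edgeR), from 36.6 and 51.9 against 64.0 and 60.5 CPM. It was -0.25 in untreated cells and -0.10 with ATRA (adjusted p = 0.538 and 0.723, edgeR). CYP26A1 had -2.15, -0.98 and -1.19 in the order untreated, vehicle and ATRA (adjusted p = 0.318, 0.524 and 0.253, edgeR). With ATRA its 3 hyperoxia libraries, at 1.98 to 2.68 CPM, lay below its 3 normoxia libraries, at 4.68 to 6.87 CPM. The share of all genes with this pattern was not counted, while the reverse pattern with ATRA was shown by 17.5% of genes. For RBP4 the values were -0.29, -1.24 and -0.07, and for CRABP2 -0.46, 1.19 and -0.73, with adjusted p-values from 0.389 to 0.959 (edgeR). Without the low-detection library, where CYP26A1, RBP4 and CRABP2 were at 0, the untreated values were -0.50 for RDH10, -1.01 for CYP26A1, 0.77 for RBP4 and 0.59 for CRABP2 (adjusted p-values from 0.335 to 0.853, edgeR).

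**Figure D3:**
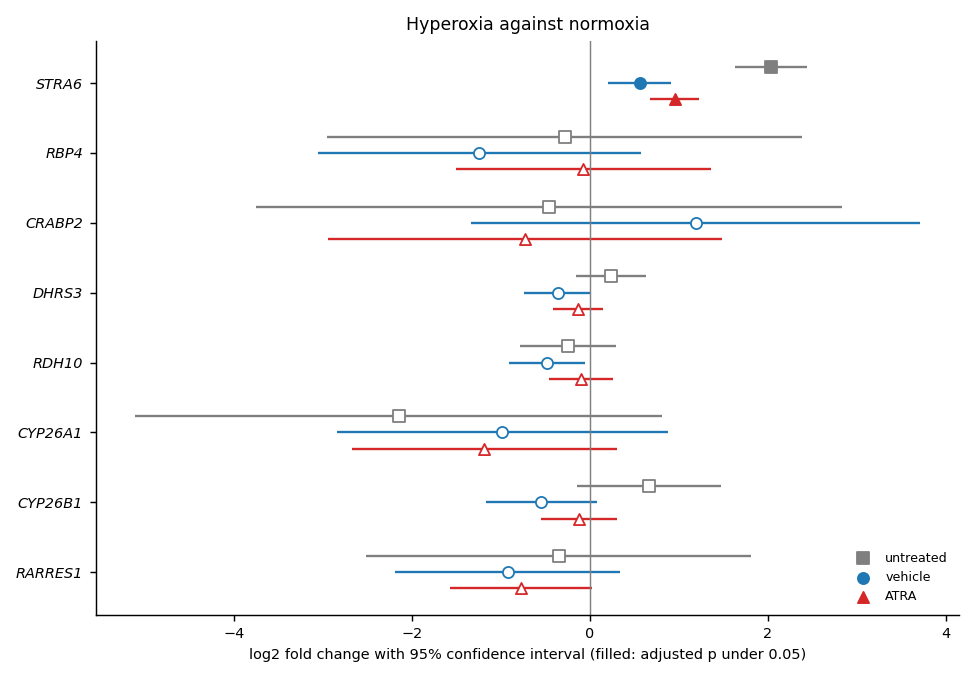
log2FC of hyperoxia against normoxia (horizontal axis) for the 8 genes tested (vertical axis) in untreated, vehicle and ATRA libraries, with 95% confidence intervals and filled symbols for an adjusted p-value under 0.05. The 3 values of STRA6, 2.04, 0.56 and 0.95, are the filled symbols, and the widest intervals belong to CYP26A1, CRABP2 and RBP4.

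The vehicle libraries were compared with the untreated ones. No pretreatment is recorded for the untreated libraries, so ethanol and the pretreatment step cannot be told apart here. None of the 8 members was DE in hyperoxia (edgeR, beside 0.00652% of 15339 genes) or in normoxia (0.0% of genes). At an unadjusted p under 0.05 there were 3 members in hyperoxia, beside 1366 of all genes, and 1 in normoxia, beside 133. DESeq2 called 1 member of 4 genes in hyperoxia and 0 members in normoxia. STRA6 was lower with vehicle in hyperoxia, at 84.3 and 115 against 206 and 163 CPM (log2FC -0.89, SE 0.18, adjusted p = 0.554, edgeR; 0.0190 by DESeq2), or -0.70 without the low-detection library (adjusted p = 1.00, edgeR). In normoxia it was higher with vehicle, at 68.5 and 67.2 against 41.3 and 48.9 CPM (log2FC 0.59, SE 0.19, adjusted p = 1.00, edgeR).

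The oxygen effect on STRA6 thus differed by -1.48 in log2FC between vehicle and untreated cells (SE 0.26, interval -2.04 to -0.92). This difference, tested after the data were seen, did not pass in edgeR (unadjusted p = 4.06e-05, adjusted p = 0.311, with 0.00652% of genes called) and passed in DESeq2 (adjusted p = 0.00168). Without the low-detection library it was -1.29 (adjusted p = 0.627, edgeR). Of the other members, CYP26B1 had -0.99 with vehicle against untreated in hyperoxia (adjusted p = 0.554, edgeR), or -0.24 without the low-detection library, and DHRS3 had -0.48 (adjusted p = 0.554, edgeR), or -0.31 without it. The largest estimate was 2.57 for CYP26A1 (SE 1.38, adjusted p = 0.564, edgeR), with 2 counts in the untreated libraries. RARRES1, CRABP2, RBP4 and RDH10 had -0.64, 0.52, -0.40 and -0.12 (adjusted p from 0.819 to 0.913, edgeR). For these 4 and CYP26A1 the values without the low-detection library are not given here.

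How alike the members' levels were over the 14 libraries was described by Pearson's r of log2 CPM, values that share libraries and scaling and that are dominated by the gap between ATRA and all other libraries. The gene most like CYP26B1 out of all genes tested was DHRS3 (r = 0.98), and the gene most like DHRS3 was CYP26B1. Next came TGFBI, a secreted matrix protein gene, for both (r = 0.97 and 0.96), then BTBD11 for CYP26B1 (r = 0.96) and EPB41L1 for DHRS3 (r = 0.95). Without the low-detection library DHRS3 and TGFBI kept these ranks for CYP26B1, as did CYP26B1 and TGFBI for DHRS3, and LIMK1 and PTPRJ came next in place of BTBD11 and EPB41L1. Within the 6 ATRA libraries, r of CYP26B1 and DHRS3 was 0.54, and within the 8 others 0.77, or 0.56 without the low-detection library.

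STRA6 was most like MFGE8 (r = 0.98), VSIR (r = 0.97) and ALDH1A3 (r = 0.96), the last of which makes retinoic acid from retinal, and without the low-detection library GPRC5A (r = 0.97) stood in the place of ALDH1A3. Its r with CYP26B1 was 0.79 over all libraries, -0.00054 within the 6 with ATRA and 0.40 within the 8 others, or -0.30 without the low-detection one.

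For the other members the most alike genes depended on the low-detection library, in which RARRES1, CYP26A1, RBP4 and CRABP2 are all at 0. RARRES1 was most like CDK18 (r = 0.95), MYADM (r = 0.92) and IGFBP6 (r = 0.92) with it, and TGFBI (r = 0.94), IFFO2 (r = 0.93) and COL4A2 (r = 0.93) without it. Its r with CYP26B1 was 0.72 with that library and 0.89 without. RDH10 was most like CBR1 (r = 0.83), PHKA2 (r = 0.82) and CELSR1 (r = 0.81), and without it TRIM9 (r = 0.92), COPZ1 (r = 0.87) and PHKA2 (r = 0.83).

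Of the sparse members, CYP26A1 was most like FAM32A, FOXD2-AS1 and HOGA1 (r = 0.91, 0.88 and 0.88), and without the low-detection library FAM32A, HOGA1 and ARSI (r = 0.86, 0.84 and 0.82). RBP4 was most like KSR1, TTC6 and CHRNA3 (r = 0.93, 0.92 and 0.91), and without it ZNF18, UBL7 and KSR1 (r = 0.85, 0.83 and 0.83). CRABP2 was most like SNORA18, SLC6A8 and KTN1-AS1 (r = 0.90, 0.86 and 0.86), and without it SLC6A8, LMLN and INAFM1 (r = 0.88, 0.88 and 0.87).

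**Figure D4:**
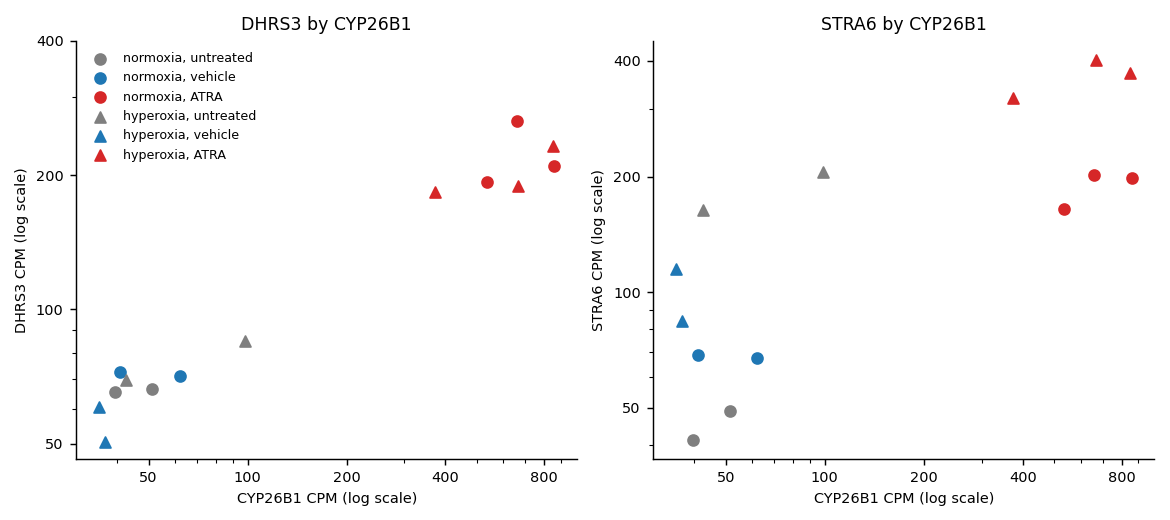
Level of DHRS3 (left, vertical log axis) and STRA6 (right, vertical log axis) against CYP26B1 (horizontal log axes) in CPM, with 1 point per library, circles for normoxia, triangles for hyperoxia and colours for treatment. For DHRS3 the 6 ATRA libraries lie at 183 to 264 CPM, above all others, and for STRA6 they split by oxygen into 165 to 202 CPM in normoxia and 319 to 403 CPM in hyperoxia.

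Beyond the members, 58 other genes of retinoid handling and response were listed by role, and 29 of them passed the low-count filter, while 8 had no count in any of the 14 libraries. With ATRA in hyperoxia, 4 of the 29 were upregulated and none was downregulated, beside 1.52% and 0.695% of all genes tested. In normoxia 3 were upregulated and none downregulated, beside 0.816% and 0.435%. The median log2FC of the 29 was 0.37 in hyperoxia, beside 0.0042 over all genes, and 0.080 in normoxia, beside 0.00080. No gene of the uptake and binding group, with 3 of 11 tested, was DE in the 2 ATRA comparisons or the 3 oxygen comparisons.

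Of the breakdown group, CYP2S1, another P450 that can act on retinoic acid, was upregulated with ATRA in hyperoxia, with 166 to 290 CPM against 60.2 and 67.3 with vehicle (log2FC 1.85, SE 0.20, adjusted p = 1.36e-05, edgeR). In normoxia it was at 181 to 270 CPM with ATRA and 107 and 110 with vehicle (log2FC 1.13, SE 0.20, adjusted p = 0.00274, edgeR). Of hyperoxia against normoxia with vehicle, which shares these vehicle libraries, its log2FC was -0.77 (adjusted p = 0.0157, edgeR). CYP1B1, which oxidises retinoids among other substrates, changed with oxygen instead, from 78.9 and 82.0 CPM in normoxia to 311 and 329 in hyperoxia with vehicle (log2FC 1.99, SE 0.18, adjusted p = 6.22e-08, edgeR).

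Of the genes that interconvert retinoids, 1 of 11 tested rose with ATRA in hyperoxia and none in normoxia. This was ALDH1A3, at 68.0 to 104 CPM with ATRA and 39.2 and 41.8 with vehicle (log2FC 0.99, SE 0.20, adjusted p = 0.00687, edgeR). It was also higher in hyperoxia in untreated cells (log2FC 1.04, adjusted p = 0.00960, edgeR) and with ATRA (log2FC 0.52, adjusted p = 0.0328, edgeR). With vehicle, whose hyperoxia libraries the ATRA comparison shares, its oxygen log2FC was 0.16 (adjusted p = 0.690, edgeR). RETSAT, which saturates retinol, was higher in hyperoxia with vehicle (log2FC 1.70, SE 0.16, adjusted p = 1.65e-07, edgeR) and, by 2.83-fold, with ATRA (adjusted p = 2.72e-08, edgeR). ALDH1A1, the abundant retinal oxidase of these cells at 2687 to 5596 CPM, was lower in hyperoxia with vehicle (log2FC -0.75, SE 0.14, adjusted p = 0.000466, edgeR).

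Of the 5 storage genes tested, CES1, a carboxylesterase, rose with ATRA in hyperoxia (log2FC 1.13, SE 0.26, adjusted p = 0.0178, edgeR) and was lower in hyperoxia than in normoxia with vehicle (log2FC -1.60, SE 0.27, adjusted p = 0.000222, edgeR), and these comparisons share the hyperoxia vehicle libraries, at 12.2 and 19.2 CPM. The triglyceride lipase gene PNPLA2 was higher in hyperoxia with vehicle (log2FC 0.80, adjusted p = 0.0130, edgeR) and with ATRA (log2FC 0.98, adjusted p = 0.000320, edgeR). DGAT1, an acyltransferase that can esterify retinol, was higher in hyperoxia with ATRA (log2FC 0.57, adjusted p = 0.0312, edgeR), but shares 137 bases with HSF1, which held 316% as many counts.

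Among 5 receptor genes tested, RARB rose with ATRA in normoxia, at 37.1 to 45.1 CPM against 6.26 and 22.5 with vehicle (log2FC 1.41, SE 0.35, adjusted p = 0.0469, edgeR). In hyperoxia it was at 22.2 to 35.5 CPM against 11.3 and 13.8 (log2FC 1.21, SE 0.35, adjusted p = 0.0862, edgeR). RARB ranked below the 12 listed genes to be named and was chosen after its values were seen, and it shares 28 bases with TOP2B, which held 665% as many counts. RXRB was higher in hyperoxia with vehicle and with ATRA (log2FC 0.72 and 0.80, adjusted p = 0.0214 and 0.00175, edgeR), and RXRA and RARA were higher with ATRA (log2FC 0.59 and 0.50, adjusted p = 0.0134 and 0.0265, edgeR).

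TGM2, a transglutaminase gene long known to respond to retinoids, rose with ATRA in hyperoxia (log2FC 0.70, SE 0.15, adjusted p = 0.0144, edgeR) and in normoxia (log2FC 1.29, SE 0.16, adjusted p = 5.80e-05, edgeR). It was also higher in hyperoxia with vehicle (log2FC 0.75, adjusted p = 0.00261, edgeR) and in untreated cells (log2FC 0.88, adjusted p = 0.00364, edgeR). With ATRA its oxygen log2FC was 0.16 (adjusted p = 0.427, edgeR). Between the oxygen exposures, 5 of the 29 listed genes were higher and 3 lower in hyperoxia with vehicle, beside 8.68% and 8.81% of all genes. With ATRA 8 were higher and none lower, beside 11.4% and 11.3%. In untreated cells 5 were higher and 1 lower, beside 7.57% and 7.58%, and the counts were also 5 and 1 without the low-detection library, with 30 listed genes tested.

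**Figure D5:**
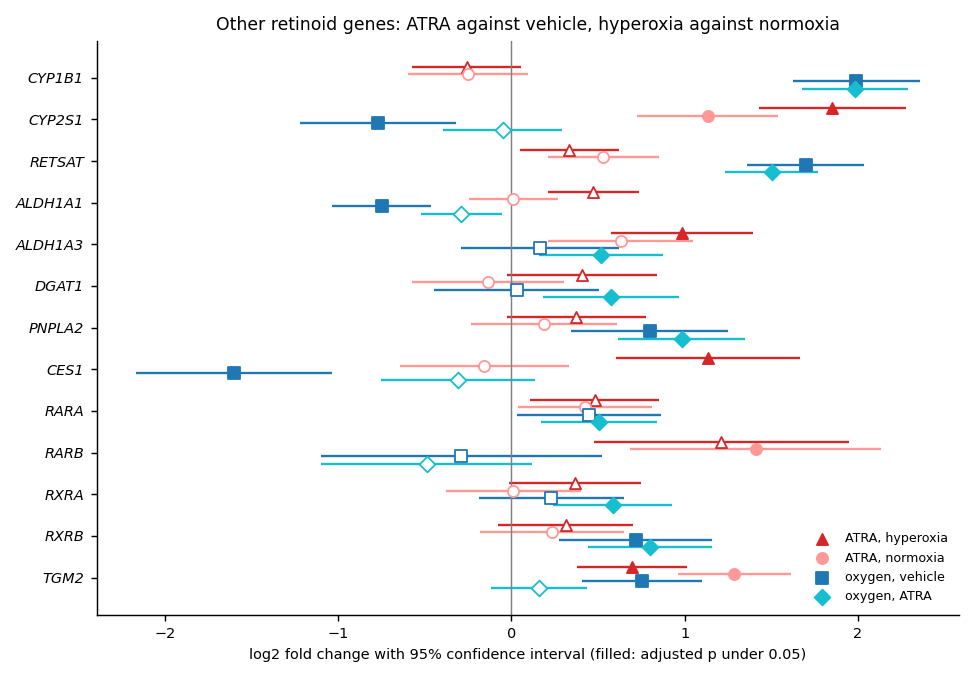
log2FC (horizontal axis) of 13 other retinoid genes (vertical axis) for ATRA against vehicle in hyperoxia and normoxia and for hyperoxia against normoxia with vehicle and with ATRA, with 95% confidence intervals and filled symbols for an adjusted p-value under 0.05. CYP2S1 and TGM2 are filled in both ATRA comparisons, while CYP1B1 and RETSAT reach 1.99 and 1.70 for hyperoxia against normoxia with vehicle.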

How the data were processed

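RNA-seq libraries of A549 cells were made by the submitters with a kit that keeps strand. Per the labels and the study's methods, reads were trimmed with Trimmomatic 0.38, aligned to hg38 with HISAT2 and counted per gene symbol with HTSeq. The authors deposited these raw counts, 1 table per library, without normalization. The annotation release and the strand and overlap settings are not given in the sources used here. Entries that name no gene, 75.2% to 78.4% of all counts, were left out of library sizes and tests. All 15 count tables were read. The label of 1 library names a treatment outside the design, so it entered no comparison.

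Tests on these counts used edgeR 4.0.16 under R 4.3.3 (filterByExpr, minimum count 10 and total 15, TMM, quasi-likelihood test, Benjamini-Hochberg over all genes tested). ATRA, oxygen and their interaction came from 10 libraries in 4 groups, and comparisons with untreated libraries from 14 libraries in 6 groups. Comparisons share libraries. Alternatives were DESeq2 1.42.0, RLE size factors, no filter, only the groups compared, 14 libraries, pooled or untreated controls, and each library left out. The untreated controls, the fits without the low-detection library and the interaction of vehicle and oxygen were added after the data were seen. In simulated data the procedure was tested first. Log2 CPM for Pearson's r used a prior count of 2, and exon lengths came from GENCODE 44. Positions and sequences are RefSeq's for GRCh38.p14, which is hg38, and windows were found for 8 of the 9 members. Plots used matplotlib 3.10.9. The members and lists were chosen with earlier results of these data known. Named were all members, the 12 listed retinoid genes with the smallest adjusted p among those called, and the 3 genes most like each member tested, with those found without the low-detection library added after their values were seen. PLAAT4 was looked up by its older symbol RARRES3.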

Additional observations from a re-analysis of the deposited data

Results flagged for a closer look

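For STRA6 and DHRS3, both vehicle libraries lay on one side of both untreated libraries in hyperoxia and on the other side in normoxia. The share of all genes with this pattern was not counted, so it is not shown to be particular to these genes. The interaction of vehicle and oxygen called 0.00652% of all genes tested, and neither STRA6 nor DHRS3 in the main fit. STRA6 was at 84.3 and 115 CPM with vehicle against 206 and 163 untreated in hyperoxia, and at 68.5 and 67.2 against 41.3 and 48.9 in normoxia. The difference between the vehicle effects, tested by an interaction term in edgeR, was -1.48 in log2FC (SE 0.26, adjusted p = 0.311). DHRS3 was at 50.4 and 60.6 CPM with vehicle against 85.1 and 69.4 untreated in hyperoxia, and at 72.3 and 71.1 against 65.3 and 66.2 in normoxia. Its difference was -0.60 (SE 0.26, adjusted p = 0.869, edgeR). The low-detection library is 1 of the 2 untreated hyperoxia libraries, and without it the differences were -1.29 for STRA6 and -0.44 for DHRS3.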

How the results depend on the processing

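The log2FC of STRA6, DHRS3 and CYP26B1 with ATRA stayed past the threshold at both oxygen exposures under every alternative run. No paired analysis was possible because the labels give no replicate numbers. The cause of the shifts below was not tested. Members near the detection limit, and effects whose intervals include 0, changed direction when the controls changed. With vehicle and untreated libraries pooled as controls, the log2FC was -0.35 for CRABP2 and 0.092 for RBP4 with ATRA in normoxia, 0.13 for CYP26B1 between oxygen exposures, and -0.28, -0.11, -0.40 and -0.16 for CYP26B1, DHRS3, STRA6 and RARRES1 in the interaction of ATRA and oxygen. Pooled without the low-detection library, it was 0.015 for RDH10 with ATRA in hyperoxia, -0.37 for CRABP2 and 0.09 for RBP4 with ATRA in normoxia, and -0.14 for STRA6 and -0.55 for RARRES1 in the interaction. With untreated libraries as controls, it was -0.83 for CRABP2 and 0.38 for RBP4 with ATRA in normoxia, -0.46, 0.66 and 0.24 for CRABP2, CYP26B1 and DHRS3 between oxygen exposures, and -0.79, -0.38, -1.08 and -0.42 for CYP26B1, DHRS3, STRA6 and RARRES1 in the interaction. Without the low-detection library among these, it was -0.46 for RBP4 and 0.10 for RDH10 with ATRA in hyperoxia, -0.83 for CRABP2 and 0.38 for RBP4 with ATRA in normoxia, 0.073, 0.73 and 0.77 for DHRS3, RARRES1 and RBP4 between oxygen exposures, and -0.037, -0.21, -0.90 and -1.51 for CYP26B1, DHRS3, STRA6 and RARRES1 in the interaction. With untreated controls the values between oxygen exposures are those of untreated cells given above. They come from other libraries than the vehicle comparison and are not a reprocessing of it.

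The 1 member DE between oxygen exposures with vehicle became 2 (STRA6 and CYP26B1) without a filter, 3 (also RDH10) with only the groups compared, 0 with 14 libraries, and 2 (STRA6 and RDH10) with pooled controls that leave out the low-detection library. In the same order these settings called 2670, 4665, 1420 and 4553 of all genes, beside 2616 in the main fit. The member counts moved with these totals and are not a result about the members. For vehicle against untreated in hyperoxia, and for the interaction of vehicle and oxygen, 0 became 1 by DESeq2 and 2 (STRA6 and CYP26B1) without a filter, and for oxygen in untreated cells 1 became 2 without a filter. Over all genes DESeq2 called 4 for vehicle against untreated in hyperoxia and 2 for the interaction. Without a filter 89 and 25 were called for these, and 2799 for oxygen in untreated cells. Leaving out 1 library at a time gave 0 to 1 members between oxygen exposures with vehicle, 0 to 7 for vehicle against untreated in hyperoxia, 1 to 6 for oxygen in untreated cells and 0 to 4 for the interaction of vehicle and oxygen, with the highest counts of these last 3 without hyperoxia untreated replicate 2, which leaves only the low-detection library in its group. In those 3 fits 33.3%, 43.6% and 22.3% of all genes were called (5630, 7364 and 3759).

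Over the same omissions the log2FC with ATRA ran from -0.052 to 1.15 for CYP26A1 and from -0.25 to 0.25 for RDH10 in hyperoxia, and in normoxia from -0.11 to 1.76 for CYP26A1, from -0.56 to 6.06 for CRABP2 and from -0.48 to 0.18 for RBP4. Between oxygen exposures it ran from -1.77 to 0.14 for CYP26A1 with vehicle, from -0.40 to 0.14 for CYP26B1 and from -0.93 to 0.29 for RBP4 with ATRA. In untreated cells it ran from -7.00 to 0.59 for CRABP2, from -0.09 to 1.06 for CYP26B1, from -6.94 to 0.73 for RARRES1, from -6.82 to 0.77 for RBP4 and from -0.59 to 0.084 for RDH10. RARRES1 in the interaction of ATRA and oxygen ran from -0.47 to 0.70, and CYP26B1 for vehicle against untreated in normoxia from -0.14 to 0.46.

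Over all genes, 331 were DE with ATRA in hyperoxia, from 29 to 522 under the alternatives and from 83 to 449 with 1 library left out. In normoxia 187 were DE, from 67 to 364 and from 56 to 267. Between oxygen exposures 2616 were DE with vehicle, from 1420 to 4665, 3391 with ATRA, from 1975 to 3753, and 2324 in untreated cells, from 58 to 2978. With 1 library left out these ranges were 1386 to 3175, 2715 to 3359 and 969 to 7364, the last without normoxia untreated replicate 1 and hyperoxia untreated replicate 2. The interaction of ATRA and oxygen gave 21 genes, from 3 to 94, and from 4 to 28 with 1 library left out. Groups of 2 or 3 libraries and counts near the limit for CYP26A1, CRABP2 and RBP4 set the precision.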

Other observations

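One library, labelled as hyperoxia with a treatment outside the design, was placed in no group. Its levels were 42.0 CPM for CYP26B1, 65.7 for DHRS3, 133 for STRA6, 57.6 for RDH10 and 3.30 for RARRES1. It also had 0.66 CPM for CYP26A1, 3.74 for CRABP2, 5.50 for RBP4 and 0 for LRAT. The values of CYP26B1, DHRS3, STRA6 and RARRES1 lay within the range of the 4 hyperoxia libraries without ATRA, which was 35.3 to 98.5 CPM, 50.4 to 85.1 CPM, 84.3 to 206 CPM and 0 to 5.86 CPM. RDH10 lay above that range, which for it was 36.6 to 55.5 CPM, and within that of the normoxia libraries without ATRA, 44.3 to 70.8 CPM.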
